A study of Mus musculus with 4 samples.

Results

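The genes described here are 8 genes of mast cells and basophils, the granulocytes that carry the high-affinity IgE receptor. Mcpt8 and Prss34 encode serine proteases made mainly by basophils in the mouse. Cma1 and Tpsb2 encode a chymase and a tryptase of mast cell granules. Cpa3, Hdc, Fcer1a and Ms4a2 are used by both cell types. The genes were chosen by name, and every probe set whose only annotated symbol was 1 of these names was taken, which gave 8 probe sets, 1 for each gene, out of the 19937 genes that a probe set names alone. All 8 matched the RefSeq gene table by gene identifier. Their log2 intensities were read on 4 Affymetrix Mouse Gene 1.0 ST arrays of bone marrow cells from wild type C57BL/6 mice, labelled as pro-B cells and isolated by the antigens B220 and cKit, with flow sorting or magnetic beads. The arrays are replicates 1 to 4 of 1 group, so no conditions could be compared, and the Emu-NKX2-3 transgenic mice of the study's design were not analysed here. Neither the age of the mice nor whether each replicate was a separate mouse or a pool is given in the sources used here. How much of the spread between arrays is technical is therefore not known.

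Mast cells and basophils release histamine, proteases, lipid mediators and cytokines when antigen cross-links IgE on their surface. The receptor has an IgE-binding alpha chain, encoded by Fcer1a, a signal-amplifying beta chain, encoded by Ms4a2, and a gamma chain, encoded by Fcer1g, that other Fc receptors share. Histidine decarboxylase, the product of Hdc, makes histamine, and carboxypeptidase A3, the product of Cpa3, is stored in the granules. Basophils complete their development in the marrow and circulate, whereas mast cells mature in tissues and keep c-Kit, the stem cell factor receptor that was also an antigen of this sort. Hdc and Cpa3 are known to be transcribed in immature haematopoietic progenitors as well. GATA factors act in the development of both lineages.

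Promoter sequences from RefSeq (build GRCm38.p6) were available for 7 of the 8 genes, Tpsb2 being the exception, and were searched on both strands for letters bound by GATA factors, from 250 bases before to 50 after the annotated start. The letters searched were AGATAA, then TGATAA, then AGATAG, then TGATAG, and no matches overlapped in these 7 windows. Of these 7 windows, 6 held at least 1 match, where 29.8% of all 32851 promoter windows and 22.2% of the 10138 genes above background with a window did. The 100 bases before the start are shown for the 4 genes whose arrays ranked in the same order (Prss34, Cpa3, Fcer1a and Ms4a2), for Cma1, a mast cell gene below background, and for Mcpt8, the basophil gene without a match. Matches are in capitals, and each line is read 5′ to 3′ along the sense strand, in the direction of transcription. The stretches are chr17:25298294-25298393 (plus strand) for Prss34, chr3:20242182-20242281 (minus) for Cpa3, chr1:173227230-173227329 (minus) for Fcer1a, chr19:11623720-11623819 (minus) for Ms4a2, chr14:55944676-55944775 (minus) for Cma1 and chr14:56085198-56085297 (minus) for Mcpt8.
Prss34: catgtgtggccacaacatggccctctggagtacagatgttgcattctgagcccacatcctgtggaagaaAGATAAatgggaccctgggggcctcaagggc
Cpa3: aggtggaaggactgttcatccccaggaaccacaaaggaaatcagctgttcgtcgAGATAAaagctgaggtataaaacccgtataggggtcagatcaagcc
Fcer1a: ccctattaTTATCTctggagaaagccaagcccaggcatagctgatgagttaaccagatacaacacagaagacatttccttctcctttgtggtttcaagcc
Ms4a2: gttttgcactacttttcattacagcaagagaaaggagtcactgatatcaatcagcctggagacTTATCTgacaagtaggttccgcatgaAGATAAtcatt
Cma1: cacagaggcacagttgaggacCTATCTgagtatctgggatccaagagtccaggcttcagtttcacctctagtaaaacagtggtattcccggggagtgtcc
Mcpt8: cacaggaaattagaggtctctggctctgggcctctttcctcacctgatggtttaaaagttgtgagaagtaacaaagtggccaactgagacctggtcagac
In Prss34 and Cpa3 the match read AGATAA and began at positions -31 and -46 from the start. Ms4a2 had 3 matches to AGATAA, at -11 on the sense strand and at -37 and -224 on the opposite strand, the last lying outside the stretch shown. Fcer1a held AGATAA on the opposite strand at -92 and Cma1 held AGATAG on the opposite strand at -79. Hdc held TGATAG on the sense strand at -221. A match is a description of the letters and was not tested as a binding site.

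Background was set from 1246 probe sets for receptors of smell, pheromones and taste, genes assumed to be silent in marrow. Their 95th percentile gave each array a line, and above background means above that line on every array. The line lay between 6.53 and 6.62 on the 4 arrays. By this rule 60.0% of all 34760 probe sets, and 63.5% of those with a single gene symbol, were above background. As the label requires, 11 of 11 measured pro-B genes were above background, among them Cd79a, Cd79b, Ebf1 and Pax5. Markers of other marrow cells were above background too, with 13 of 13 granulocyte and monocyte, 7 of 7 azurophil granule, 8 of 8 erythroid and 6 of 7 eosinophil genes. Some were near the highest value on any array, 14.62, with means of 13.82 for Mpo, 13.68 for Elane, 13.67 for Lyz2 and 13.74 for Car1. Others were lower, such as Klf1 at 8.64 and Prg2 at 9.35. The means of Cd79a, Cd79b, Ebf1 and Pax5 were 12.21, 12.64, 11.18 and 10.80. The share of each cell type was not measured. The array of replicate 3 stood apart in Xist, the X-inactivation transcript of female cells. It was 5.48 there, under the line of 6.54, against 13.04 to 13.17 on the others. The array of replicate 1 stood apart in erythroid genes. The calls of Mcpt8, Prss34, Cpa3, Hdc and Cma1 given next were the same without either array. Other differences of replicate 3 cannot be told apart from a difference in the sex of the mice. In these bulk samples, fewer cells of a type and less RNA per cell cannot be told apart.

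The basophil genes were above background and the mast cell genes were not. Of the 8 genes 4 passed on all arrays, beside 60.0% of all probe sets. Both basophil genes passed, as did 2 of the 4 shared genes (Cpa3 and Hdc) and neither of the mast cell genes, while Fcer1a and Ms4a2 passed on 3 of the 4 arrays. The difference between basophil and mast cell genes itself was not tested. Each probe set was also tested alone with limma on the same values and line, asking one-sided whether a probe set's mean margin over the line exceeded 0, with adjustment over all 34760 probe sets, of which 60.2% were called. The same 4 of the 8 genes were called. Levels of different probe sets cannot be ranked against each other, so each gene was compared with the line and with itself across arrays.

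**Figure D1:**
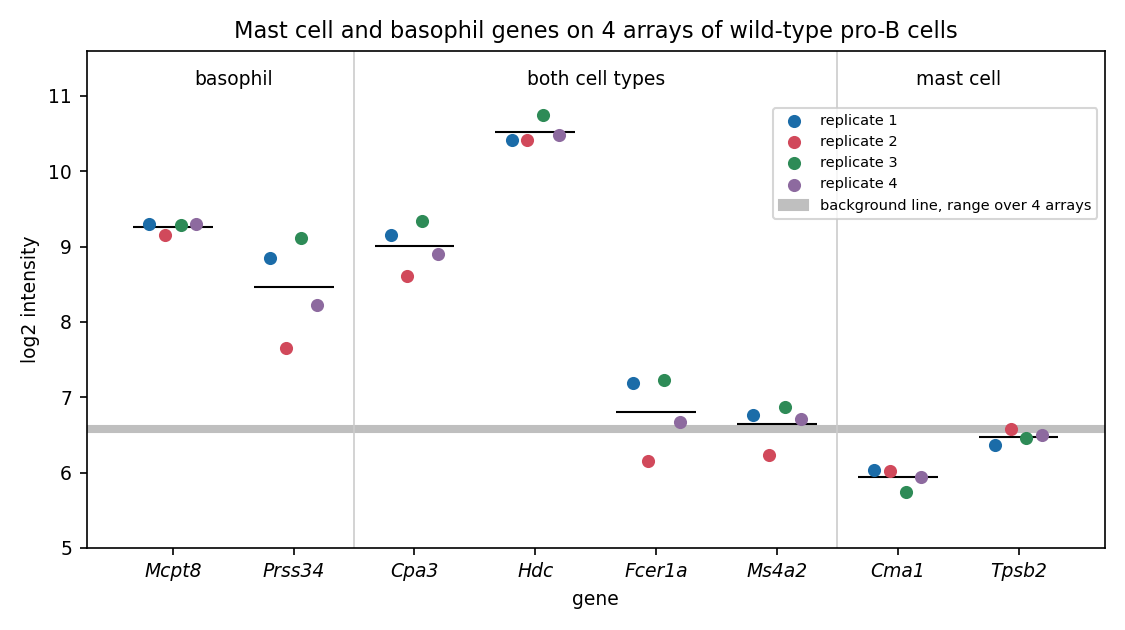
Log2 intensity (vertical axis) of each of the 8 genes (horizontal axis) on the arrays of replicates 1 to 4. Points are arrays, black bars are means, and the grey band is the range of the background line from 6.53 to 6.62. The basophil genes lie above the band on every array, Cma1 lies below it on every array, Tpsb2 lies below each array's own line, and Fcer1a and Ms4a2 dip below it on the array of replicate 2.

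Mcpt8, a granule protease used as a marker of mouse basophils, had log2 values of 9.31, 9.15, 9.28 and 9.30 on the arrays of replicates 1 to 4. Its mean margin over the line was 2.69 ± 0.07 (SE, n = 4, limma adjusted p = 2.5e-08). The value of replicate 2 was the lowest and the others lay close together. Prss34, a tryptase-like protease of basophils, had log2 values of 8.85, 7.65, 9.11 and 8.22. The highest array exceeded the lowest 2.76-fold, yet the lowest still passed the line, and the mean margin was 1.89 ± 0.25 (SE, n = 4, limma adjusted p = 0.000231).

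Cma1, which encodes a chymase of connective tissue mast cells, had log2 values of 6.03, 6.02, 5.75 and 5.94. All of them lay under the line, with a mean margin of -0.64 ± 0.07 (SE, n = 4). Tpsb2, the mast cell tryptase stored with heparin, had log2 values of 6.36, 6.57, 6.45 and 6.50, for a mean margin of -0.10 ± 0.06 (SE, n = 4). Both had an adjusted p of 1 in the limma test. Tpsb2 ran close under the line on every array, so its call depended on where the line was drawn, and at the 90th percentile it passed (margin 0.27). Cma1 remained under the line with every alternative line, normalization and left-out array tried (margins -1.39 to -0.27).

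Cpa3 had log2 values of 9.15, 8.61, 9.34 and 8.91, and a mean margin of 2.43 ± 0.13 (SE, n = 4, limma adjusted p = 1.85e-06). Hdc had log2 values of 10.41, 10.42, 10.75 and 10.48, and a mean margin of 3.94 ± 0.08 (SE, n = 4, limma adjusted p = 1.23e-08). Both were above background on all arrays, with replicate 3 the highest in each.

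The IgE receptor chains differed in detection. Fcer1a, the alpha chain, had log2 values of 7.18, 6.16, 7.22 and 6.67, with only the array of replicate 2 below the line. Its mean margin of 0.24 ± 0.20 did not pass the test (SE, n = 4, limma adjusted p = 0.219), and the adjusted p was 0.528, 0.546 and 0.225 without replicates 1, 3 and 4. Without replicate 2, the array that fell below the line, the margin was 0.47 (limma adjusted p = 0.0163), a value that follows from leaving out the lowest array. Ms4a2, the beta chain, had log2 values of 6.76, 6.23, 6.87 and 6.71, again with replicate 2 alone below the line. Its mean margin was 0.07 ± 0.12 (SE, n = 4, limma adjusted p = 0.457), with adjusted p of 0.703, 0.834 and 0.570 without replicates 1, 3 and 4. Without its lowest array, again replicate 2, it was 0.23 (limma adjusted p = 0.0265). The gamma chain gene Fcer1g, which is also used by the Fc receptors of myeloid cells, was well above the line, with log2 values of 12.68, 12.53, 12.86 and 12.66 and a margin of 6.11 ± 0.08 (SE, n = 4, limma adjusted p = 3.06e-09).

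Across the arrays, 4 of the 8 genes ranked the arrays alike. Prss34, Cpa3, Fcer1a and Ms4a2 were each lowest on replicate 2, then replicate 4, then replicate 1, and highest on replicate 3, an order held by 3.33% of all probe sets. This order is that of Prss34 and was counted after its values were seen. Of these genes only Prss34 and Cpa3 were above background, and the ranks of Fcer1a and Ms4a2 rest in part on replicate 2 values under the line. The order of these 4 genes was the same after quantile normalization, cyclic loess and median centring. Those steps changed the values little, as RMA is already named for them, so the unchanged order says little. The span from replicate 2 to replicate 3 was 1.46 on the log2 scale for Prss34 and 0.73 for Cpa3. For Fcer1a and Ms4a2 no span is given, since their replicate 2 values were under the line. Each array is a single measurement, so these differences between arrays have no test, and replicate 3 also stood apart in Xist.

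The other members did not share that order. Mcpt8, the second basophil gene, spanned only 0.15 on the log2 scale from its lowest to its highest array, where Prss34 spanned 1.46. The SD over the arrays was 0.66 for Prss34, which ranked 111 among the 20869 probe sets above background, and 0.07 for Mcpt8, which ranked 17123. Hdc was higher on replicate 3 than on the other arrays by 0.31 and was lowest on replicate 1. Cma1 was lowest on replicate 3 and Tpsb2 highest on replicate 2, but both lay under the line on all arrays. The median SD of the 4 members above background was 0.24, beside 0.13 over all probe sets above background.

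The shift of a gene on an array is its log2 value there minus its mean on the other arrays. For the 4 members above background the median was -0.33 on replicate 2, where 4 of 4 were lower. It was 0.38 on replicate 3, where 4 of 4 were higher, and 0.13 and -0.09 on replicates 1 and 4. The value on replicate 1 was 0.02 without replicate 2 and 0.24 without replicate 3, and that on replicate 4 was -0.22 and 0.04 without them. Over all probe sets above background the median shift was between -0.01 and 0.02 on every array.

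Genes of other marrow cells moved on the same arrays. All 13 granulocyte and monocyte genes were lower on replicate 2 (median -0.57), and all 13 were higher on replicate 3 (median 0.26). On replicate 4, where the sign of the members' median was not settled, 3 of the 4 members above background were lower. Of the granulocyte and monocyte genes 10 of 13 were higher there (median 0.33), and on replicate 1 their median was -0.01. Among them S100a8, S100a9, Ltf and Camp, proteins of neutrophil granules or cytosol, had log2 values of 11.02, 10.47, 9.50 and 9.40 on replicate 2 and of 12.14, 11.52, 10.94 and 10.58 on replicate 3. Of the pro-B genes 10 of 11 were lower on replicate 2 (median -0.32) and 7 of 11 higher on replicate 3 (median 0.15). The azurophil granule genes of granulocyte progenitors had median shifts of -0.03 on replicate 2 and 0.04 on replicate 3, with Mpo at 0.04 and 0.20 and Elane at -0.03 on both. Erythroid genes were opposite to the members on replicate 2, with 8 of 8 higher (median 0.66), and 8 of 8 were higher on replicate 3 (median 0.44). The low erythroid values of replicate 1 enter the means that these shifts are taken from. The part of these other cells in the spread of the mast cell and basophil genes was not tested.

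Eosinophil genes, from a granulocyte lineage close to that of basophils, were opposite to the members in direction on replicate 2 and alike on replicate 3. When each other replicate was left out, the members' median was 0.02 to 0.24 on replicate 1 and -0.22 to 0.04 on replicate 4. On replicate 4 its sign was thus not settled, so directions are not compared there. On replicate 1 it stayed positive, though as low as 0.02, where the eosinophil genes were lower. The median shift of the eosinophil genes was 0.35 on replicate 2, with 6 of 6 higher, and -0.38 on replicate 1, with 6 of 6 lower. On replicate 3 it was 0.18, with 5 of 6 higher, and on replicate 4 it was -0.12, with 4 of 6 lower. Epx, the eosinophil peroxidase, had log2 values of 8.56, 9.57, 9.25 and 8.94, and Prg3, a major basic protein homologue, of 7.62, 8.09, 7.73 and 7.89. Prg2, the major basic protein, was highest on replicate 3, at 9.73, followed by replicate 2, at 9.61. The array on which Prss34 and Cpa3 were lowest held the highest values of Epx, Prg3 and Ear6. Like Prg2, Il5ra and Siglecf were highest on replicate 3, where Prss34 and Cpa3 were highest too.

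**Figure D2:**
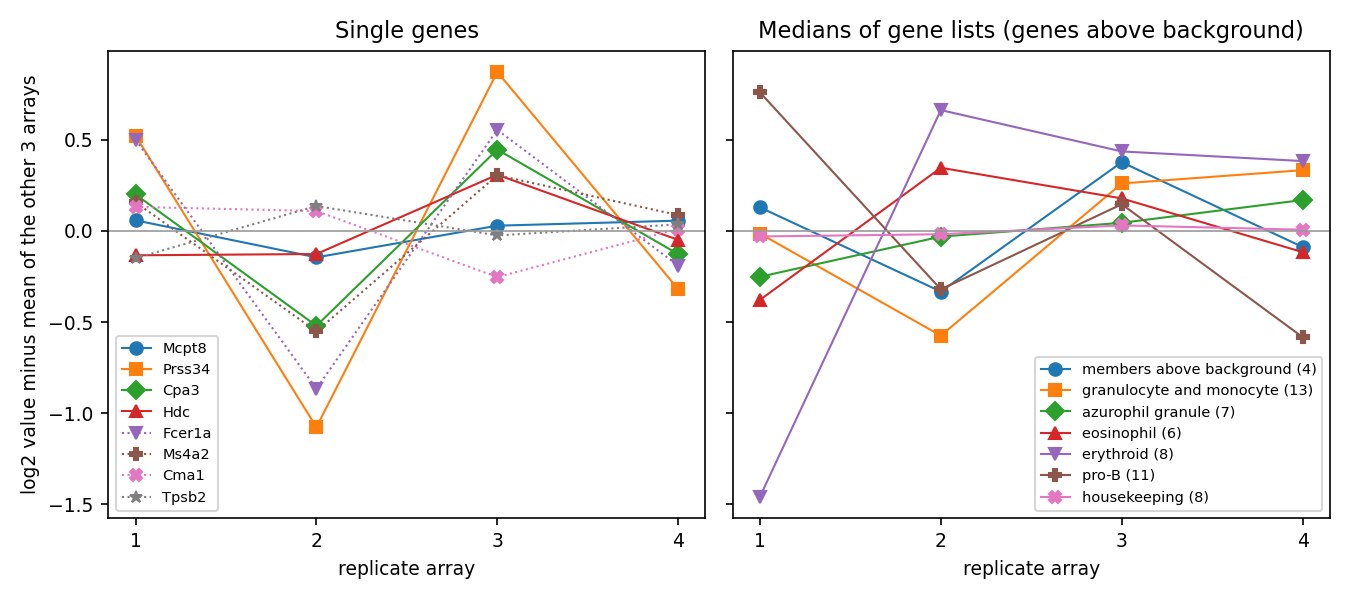
Log2 value on an array minus the mean of the other 3 arrays (vertical axis) for the arrays of replicates 1 to 4 (horizontal axis). On the left, lines are the 8 genes, dotted where a gene was not above background. On the right, lines are medians of gene lists with the number of genes above background in brackets. Prss34 falls to -1.08 on replicate 2 and rises to 0.87 on replicate 3, while Mcpt8 stays between -0.14 and 0.06.

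The genes whose deviations from their own mean over the 4 arrays lay closest to the average of the 4 members above background were H2bc18, a histone gene, Hal, which encodes histidine ammonia-lyase, S100a10, Vnn3, Drc7 and Padi4, a peptidylarginine deiminase of neutrophils. Their root mean square differences from that average ran from 0.037 to 0.056 on the log2 scale over 4 arrays. For Hal the log2 values were 7.87, 7.49, 8.13 and 7.68, and for S100a10 they were 12.57, 12.01, 12.71 and 12.38. They are the nearest among all probe sets with a single symbol above background, each matched on 4 values, and their closeness was not tested. Of the 4 members that make up the average, Cpa3 lay nearest to it, at 0.028, and Prss34 at 0.33. As each is part of that average, these values are not comparable with those of the other genes.

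The protease genes lie in gene clusters, so each was set beside its neighbours. This step was added after the values were seen. In the GRCm38.p6 assembly Cma1 and Mcpt8 belong to the chymase locus on chromosome 14, which ends with granzyme genes, and Prss34 and Tpsb2 to the tryptase locus on chromosome 17. Of 13 chymase locus genes that a probe set names alone, 2 were above background, the neighbours Mcpt8 and Ctsg, beside 63.5% of all probe sets with a single symbol. Ctsg, the cathepsin G gene of neutrophil and mast cell granules, had log2 values of 13.36, 13.50, 13.43 and 13.60. On 1 side of this pair Mcpt1, Mcpt2 and Mcpt4, chymases of mucosal and connective tissue mast cells, had mean margins of -1.87, -2.05 and -1.81 with Cma1 beyond them. On the other side the granzyme genes Gzme, Gzmd, Gzmg, Gzmn, Gzmf and Gzmc were under the line on all arrays, and Gzmb passed on replicate 1 alone, at 7.30.

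Of 6 genes of the tryptase locus, 2 were above background, beside the same 63.5%. These were Prss34 and Tpsg1, which lie at opposite ends of the row. Tpsg1, a membrane-anchored tryptase, had log2 values of 7.10, 6.88, 7.05 and 6.90. Its margin of 0.41 passed the test (limma adjusted p = 0.00127) but was lost with the 99th percentile line, which lay between 7.17 and 7.26. Tpsab1, annotated as a transcribed pseudogene in this C57BL/6J assembly, lay under the line with a mean margin of -0.62, and Prss29 with one of -0.21. Probe sets of close paralogues such as the tryptases can share hybridization, so single calls near the line are uncertain.

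**Figure D3:**
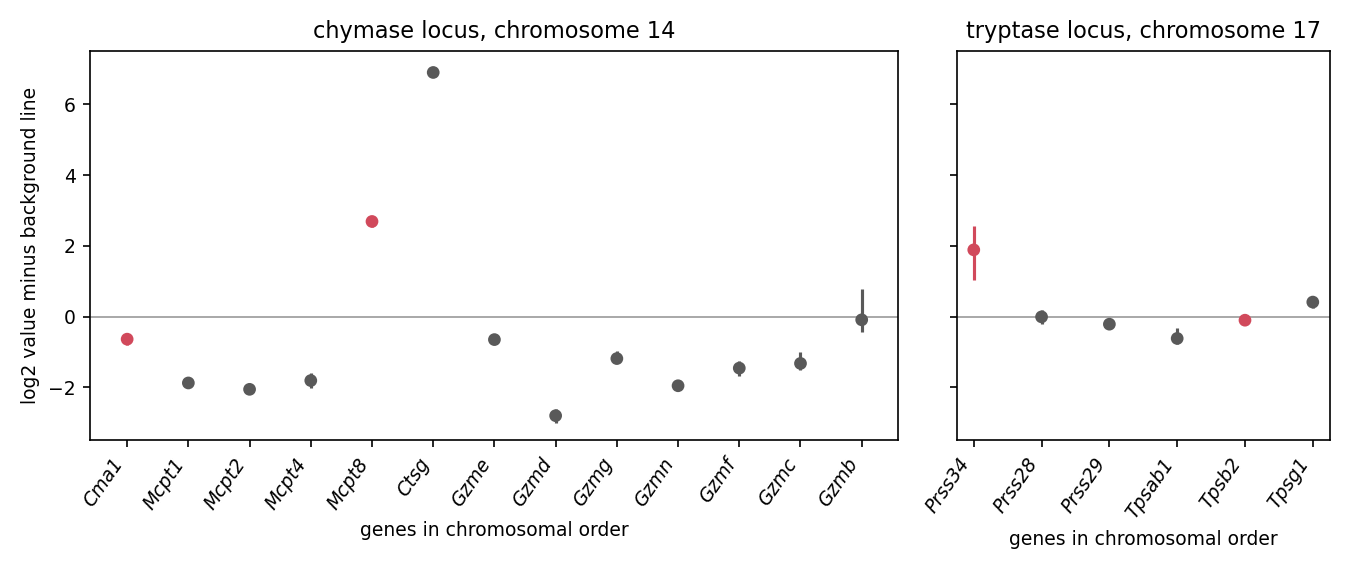
Mean log2 value minus the background line (points, vertical axis) and its range over the 4 arrays (bars) for genes of the chymase and tryptase loci in chromosomal order (horizontal axis). The 4 genes of the mast cell and basophil set are in red. Mcpt8 and Ctsg stand above 0 at 2.69 and 6.90 and the genes on either side of them lie below 0, while Prss34 stands at 1.89 and Tpsb2 at -0.10.

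Other genes of mast cell and basophil biology were taken from 6 lists. Of 72 genes with a probe set, 56 were above background on all arrays, 5 on some and 11 on none, beside 63.5% of the probe sets with a single symbol that passed. Most of these genes are used by many blood cells. Of the mast cell proteases outside the 8 genes, 2 of 7 passed (Tpsg1 and Ctsg), and with the 99th percentile line 1 did.

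IgE receptor signalling genes passed in 13 of 13 cases, including Syk, the kinase that binds the gamma chain, with log2 values of 11.34, 10.70, 10.83 and 10.61. Lat, the adaptor downstream of Syk, had log2 values of 8.29, 7.58, 7.65 and 7.65. Both were highest on replicate 1, where 12 of the 13 genes were higher (median shift 0.23), as were 11 of 11 pro-B genes (median shift 0.76). These kinases and adaptors also serve the B-cell receptor or its precursors, and how much of their signal came from which cells was not tested.

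Among granule and lipid mediator genes 9 of 11 passed. Srgn, the serglycin core protein that holds granule proteases and histamine, had log2 values of 13.72, 13.63, 13.74 and 13.76. Slc18a2, the vesicular transporter that loads histamine into granules, lay just above the line, at 6.90, 6.64, 6.81 and 6.64, and its margin of 0.18 did not pass the limma test (adjusted p = 0.0555). Alox5, the first enzyme of leukotriene synthesis, had log2 values of 9.02, 9.10, 9.82 and 9.50, with replicate 3 the highest. Ltc4s, which makes leukotriene C4, passed on 3 arrays and Hpgds, a prostaglandin D2 synthase, on 1 array. Ptgs2 varied most in this list, from 6.85 on replicate 1 to 7.97 on replicate 2.

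Surface receptor genes passed in 12 of 16 cases. Kit, the mast cell growth factor receptor and sort antigen, had log2 values of 10.46, 10.83, 10.81 and 10.80, lowest on replicate 1. Il3ra, the alpha chain of the receptor for the basophil growth factor IL-3, had values between 8.86 and 8.90, with an SD of 0.02. Csf2rb, the common beta chain of that receptor, lay between 10.91 and 11.22. Cd200r3, an activating receptor of basophils and mast cells, lay below the line on all arrays, at 6.01, 4.80, 5.32 and 5.63. Also below it on all arrays were Enpp3, an ectoenzyme of activated basophils and mast cells, and the mast cell receptor genes Mrgprb1 and Mrgprb2.

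Transcription factor genes passed in 14 of 14 cases. Gata2, needed for mast cell and basophil development, had log2 values of 7.96, 8.03, 7.94 and 7.60, and Mitf, a regulator of mast cell genes, of 8.43, 8.25, 8.17 and 8.38. Cebpa, which favours the basophil over the mast cell fate, had values of 9.33, 9.26, 9.35 and 9.01. Each of these spanned at most 0.43 on the log2 scale. Gata1, shared with erythroid cells, was lowest on replicate 1, with values of 8.15, 9.84, 9.17 and 9.38. On that array 8 of 8 erythroid genes were lower (median shift -1.46), and their part in the Gata1 values was not tested.

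Cytokine and chemokine genes passed in 6 of 11 cases. Il13, a type 2 cytokine of basophils and mast cells, had a margin of 0.31 (limma adjusted p = 0.00274), while Il4, its partner cytokine, passed on 2 of the 4 arrays with log2 values of 6.40, 6.66, 6.57 and 6.48. Il6, Il3 and Il5 lay below the line on all arrays, with mean margins of -2.42, -2.22 and -1.48. Ccl3, a chemokine of many myeloid cells, was well above it, at 9.25, 9.15, 9.29 and 9.42.

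**Figure D4:**
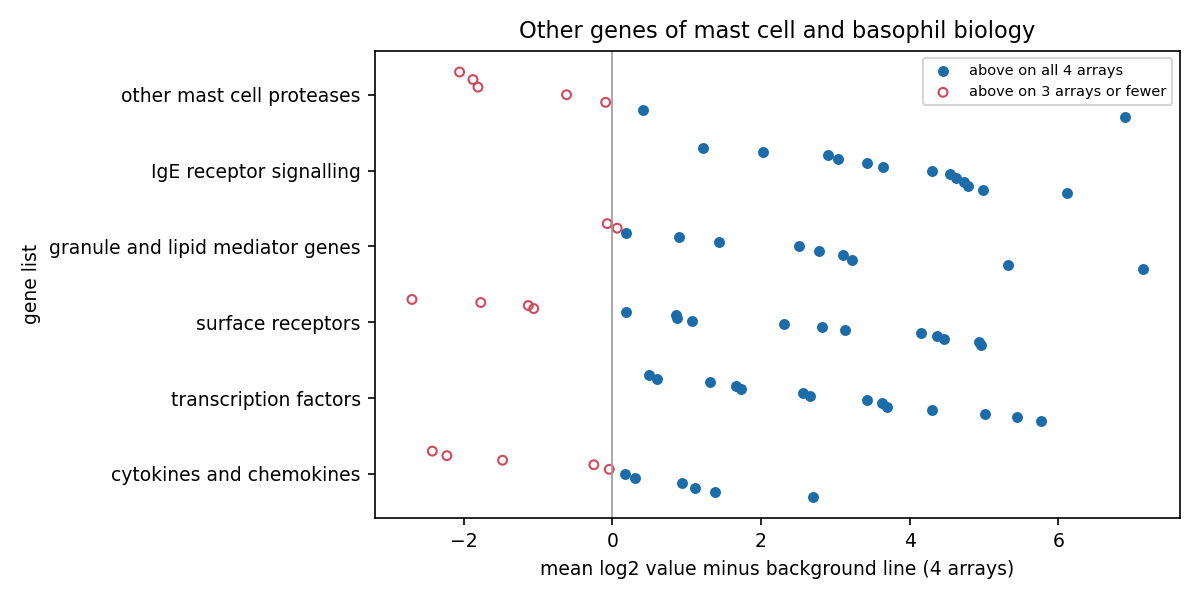
Mean log2 value over 4 arrays minus the background line (horizontal axis) for the genes of 6 lists (vertical axis), 1 point per gene, ordered within a list by margin. Filled points were above the line on all 4 arrays and open points on 3 arrays or fewer. All 13 signalling and 14 transcription factor genes are filled, against 2 of 7 proteases.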

How the data were processed

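Total RNA of 4 replicate samples labelled as wild type pro-B cells was hybridized to Affymetrix Mouse Gene 1.0 ST arrays. The authors deposited log2 intensities per probe set, for which RMA is named for background correction and normalization. A filter on low-expression probe sets is also named, without a threshold. The sources used here name neither the genome build nor the arrays normalized together. The table holds 34760 probe sets, each of which was kept, with values down to 2.27, so low values remained in it. Array medians were 7.31 to 7.35, and precision is limited by the number of arrays.

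Probe sets with 1 annotated symbol (21640) were named, 1321 had several and 11799 none listed. Where a gene had several probe sets, 1 above background sufficed, and the one with the highest mean gave its values. Margins were tested with limma 3.58.1 (R 4.3.3, lmFit and eBayes on log2 values minus each array's line, one-sided, Benjamini-Hochberg over all probe sets, threshold 0.05). Other values were computed in Python 3.11.15 with numpy 2.4.6 and pandas 2.3.3. Tested on simulated arrays of 34760 probe sets, limma recovered 100 of 100 true margins of 2, 89 of 100 of 1, 53 of 100 of 0.5 and 4 of 100 of 0.25, and none of 34360 at -0.5. All but the 100 at each positive margin were set at -0.5, whereas 60.2% of the real probe sets were called. The adjustment was thus stricter there, and margins between -0.5 and 0.25 were not simulated. These recoveries therefore do not give the power in the real data.

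The members and lists were chosen with earlier results of these data known. Named genes were the 8 members, the first 4 measured genes of each other list, the 2 with the largest SD above background in each, and the 6 nearest in pattern. Further list and locus genes were named after their values were seen. Alternatives tried for the line were the 99th and 90th percentile, the 211 probe sets of pheromone and taste receptors alone and the array median. Others were 3 of 4 arrays, the limma call, quantile normalization, cyclic loess, median centring, no filter, the mean over probe sets and leaving out each array. Protein sequences were not compared here.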

Additional observations from a re-analysis of the deposited data

Results flagged for a closer look

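Dixon's ratio marked 1 array as distant from the rest for 12 of 80 named genes, where chance flags about 1 in 20, or 4 genes. That rate holds for independent normal values, and some of these genes vary together. Of the 80, 6 were picked for their pattern over the arrays. The share flagged over all probe sets was not counted, so no excess is claimed. Among the 8 mast cell and basophil genes only Mcpt8 was marked, at 9.15 on the array of replicate 2 against a mean of 9.30 on the others. Its values spanned only 0.15 on the log2 scale. After quantile normalization they were 9.29, 9.17, 9.28 and 9.32, and the ratio was computed on the deposited values alone. Also low on replicate 2 were the neutrophil granule genes Ngp at 12.38 (12.96 on the others) and Ltf at 9.50 (10.81). On the array of replicate 1, Kit was low at 10.46 (10.81), as were the erythroid genes Slc4a1 at 8.52 (10.79), Alas2 at 6.96 (8.04), Hemgn at 7.89 (9.55) and Rhd at 8.41 (10.26), and Lat was high at 8.29 (7.63). Ppia at 13.31 (13.22) and Mcpt1 at 4.84 (4.65), which lay under the background line on all arrays, were high on replicate 3. Prtn3 was high on replicate 4 at 13.22 (13.03). Causes were not tested.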

How the results depend on the processing

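Mcpt8, Prss34, Cpa3 and Hdc were above background and Cma1 was not under all the alternatives tried. The shared genes above background went from 2 to 4 when 3 of 4 arrays sufficed, and were 2 to 4 when each replicate was left out. The mast cell genes above background went from 0 to 1 (Tpsb2) with the 90th percentile and with pheromone and taste receptors alone, where the margin of Tpsb2 was 0.27 and 0.23 and the median SD of the members above background 0.16. With those lines the margin passed for Fcer1a (0.60 and 0.57) and Ms4a2 (0.44 and 0.40). With the 99th percentile and the array median as the line the margins were -0.40 and -0.52 for Fcer1a and -0.56 and -0.68 for Ms4a2. When each replicate was left out they were 0.088 to 0.47 and -0.014 to 0.23. The other mast cell proteases above background were 1 with either of these stricter lines, and the cytokine genes 3 with the array median. The median shift of the members on replicate 4 was -0.22 to 0.04 when each other replicate was left out, so its sign is not settled. No paired analysis was possible because the arrays form a single group. Moving the line changes which probe sets pass by construction, so calls close to it, such as those of Fcer1a, Ms4a2 and Tpsb2, are limited by signal over background. No alternative was added later.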
